A study of Mus musculus with 3 samples.

Results

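The bile acid synthesis and conjugation enzymes are 10 genes, Cyp7a1, Cyp8b1, Cyp27a1, Cyp7b1, Cyp39a1, Hsd3b7, Akr1d1, Akr1c6, Slc27a5 and Baat, chosen by symbol for their place in the pathway. All 10 matched an Ensembl identifier among the 37620 genes of each deposited table. They were measured by mRNA sequencing in primary hepatocytes of C57BL/6 mice at passage 1, cultured on gelatin with serum and insulin. There was 1 library of cells given the solvent DMSO and there were 2 libraries, TUDCA replicates 1 and 2, of cells given tauroursodeoxycholic acid (TUDCA), labelled as 100 mM for 24 h. The labels give no time for DMSO, no age of the animals and no statement of how many animals were pooled, and the series speaks of 2 independent experiments without saying which library belongs to which. A difference in culture time and an effect of TUDCA therefore cannot be told apart, and the difference between the TUDCA libraries may be technical only.

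Hepatocytes make bile acids from cholesterol by 2 entry routes. In the classical route Cyp7a1 hydroxylates the sterol ring first and sets the rate, and Cyp8b1 adds the hydroxyl group that distinguishes cholic acid. In the alternative route the mitochondrial enzyme Cyp27a1 first oxidises the side chain and Cyp7b1 then hydroxylates the ring, while Cyp39a1 does the same for 24-hydroxycholesterol, an oxysterol known mainly from brain. The routes join at the ring modifications by Hsd3b7, Akr1d1 and aldo-keto reductases such as Akr1c6. Slc27a5 then activates the bile acid as its coenzyme A ester and Baat joins it to taurine, the amino acid that TUDCA itself carries. Bile acids restrain their own synthesis through the nuclear receptor FXR (gene Nr1h4), which induces the corepressor SHP (gene Nr0b2), and loss of Cyp7a1 expression is a familiar feature of hepatocytes in culture.

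The bases before the start site of 3 members show what sequence lies upstream of a low classical gene, a high alternative gene and a gene called higher with TUDCA. They come from RefSeq (GRCm38.p6), which held a promoter for 5 of the 10 members, are written on the gene's strand, and end before any base that GENCODE M21 places in an exon of the gene. The sources used here do not name the genome build of the authors' counting. Capitals mark matches, on either strand, to the TATA box letters TATAAA, to the CCAAT box, or to the nuclear receptor half-site AGGTCA. No matches overlapped in these windows. The windows lie at chr9:121916306-121916555 (minus strand, Cyp8b1), chr1:74713285-74713534 (plus strand, Cyp27a1) and chr13:4434093-4434305 (plus strand, Akr1c6).
Cyp8b1: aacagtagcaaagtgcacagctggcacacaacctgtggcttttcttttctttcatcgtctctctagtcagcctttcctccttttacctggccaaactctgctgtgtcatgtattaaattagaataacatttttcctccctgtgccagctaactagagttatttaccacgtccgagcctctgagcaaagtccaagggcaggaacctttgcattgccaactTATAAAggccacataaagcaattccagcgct
Cyp27a1: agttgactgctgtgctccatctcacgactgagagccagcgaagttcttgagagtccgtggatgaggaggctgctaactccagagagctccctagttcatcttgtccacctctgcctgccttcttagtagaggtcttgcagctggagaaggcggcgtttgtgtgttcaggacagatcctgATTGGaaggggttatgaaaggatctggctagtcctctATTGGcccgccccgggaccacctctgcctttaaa
Akr1c6: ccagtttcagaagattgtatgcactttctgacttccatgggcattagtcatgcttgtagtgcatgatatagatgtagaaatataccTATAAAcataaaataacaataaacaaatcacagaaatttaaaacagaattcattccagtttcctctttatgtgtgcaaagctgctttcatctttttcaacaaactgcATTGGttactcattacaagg

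Positions are counted from the RefSeq start site. The printed Akr1c6 window has 213 bases, because the last 37 before that site were dropped as exon in M21. Cyp8b1 held TATAAA with its first base at -31 from the start site and Akr1c6 at -164, and 12.4% of the 32851 promoters in the table held it in the 250 bases before the start. CCAAT, read on the other strand, was held by Cyp27a1 at -71 and -34 and by Akr1c6 at -57, and 33.8% of promoters held it. AGGTCA, held by 14.0% of promoters, matched in 1 of the 5 member promoters, that of Akr1d1, at -232 and -210. The inverted repeat of the half-site around 1 free base (AGGTCANTGACCT), a consensus for FXR, was in none of the 5 and in 2 of the 32851 promoters. These are matches of letters in a short window and were not measured as binding.

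The values are RPKM, in which the reads of a gene are divided by its length and by the size of the library. The library sizes behind them were 10774289 (DMSO), 9757547 (TUDCA replicate 1) and 10575699 reads (TUDCA replicate 2). Whole reads could be read back from the RPKM steps as the smallest whole numbers that fit all 3 libraries, and a gene may have a multiple of these. Hepatocyte marker transcripts were abundant, with Alb at 5771, 7177 and 6111 RPKM in DMSO and TUDCA replicates 1 and 2, and all 10 hepatocyte markers passed the filter. Their summed level was 11600 RPKM in DMSO against 14880 and 12900 RPKM in the TUDCA libraries. Of 7 bile duct markers, Spp1, Sox9 and Krt19 were well above the filter, with Sox9 at 20.4, 26.1 and 31.7 RPKM and Krt19 at 10.7, 9.50 and 17.0 RPKM, while Epcam, Krt7 and Muc1 stayed at or below 0.384 RPKM and Cftr was at 0. Endothelial markers ran from 0 to 1.64 RPKM (Pecam1 in TUDCA replicate 1) and stellate cell markers from 0 to 2.35 RPKM (Acta2 in DMSO). Of 8 Kupffer cell and macrophage markers, Clec4f had 3.50, 3.93 and 4.42 RPKM and Cd5l 37.6, 34.1 and 28.6 RPKM. Cd68 was the highest, at 170.4, 154.3 and 169.4 RPKM, and made up most of their sum. Of the 7 tested, 4 were above DMSO in both TUDCA libraries and 3 were below in both. Summed levels in DMSO and TUDCA replicates 1 and 2 were 230.4, 212.1 and 224.6 RPKM for 8 Kupffer cell and macrophage markers, 419.2, 804.1 and 627.6 RPKM for 7 bile duct markers, mostly Spp1, 2.65, 4.33 and 3.72 RPKM for 6 endothelial markers, and 6.86, 6.91 and 5.89 RPKM for 8 stellate cell markers. For 10 epidermal markers they were 9718, 5749 and 5747 RPKM, mostly Sprr1a. Of the 5 epidermal markers tested limma called 4 lower with TUDCA (adjusted p below 0.05), among them the basal keratin Krt5 (29.6, 15.5 and 14.5 RPKM) and Crct1 (801.9, 138.2 and 101.3 RPKM), with Lor and Sprr1a the others, while Krt14, the partner of Krt5, Krt1 and Trp63 were at 0. Called higher were Spp1 among 3 tested bile duct markers and Fgb among the hepatocyte markers. No call was made among the 7 Kupffer cell and macrophage, 2 endothelial and 3 stellate cell markers that passed the filter. Over all 11300 genes tested 1.77% were called higher and 0.876% lower. None of the marker calls held with no filter on low values. The hepatocyte, bile duct, endothelial and epidermal sums moved with the groups. The Kupffer cell and macrophage sum was also below DMSO in both TUDCA libraries. Of 10 hepatocyte markers 7 were above DMSO in both TUDCA libraries and 1, Apoa1, was below in both. Within the hepatocyte sum Fgb had 914.3, 2530 and 1885 RPKM. The part of these sums in the results below was not tested.

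The enzymes of the classical route had at most 16 reads in any of the 3 libraries. Cyp7a1 (ENSMUSG00000028240) had no read in any library. At the mean length of its transcripts in GENCODE M21, 3 reads would be 0.127 RPKM in DMSO and 0.140 and 0.129 RPKM in TUDCA replicates 1 and 2. Levels well above these would be likely to give reads, while lower levels may have been missed. A change with TUDCA among such lower levels could not be measured at this depth. Cyp8b1 (ENSMUSG00000050445) had 0.762 RPKM in DMSO, 0.841 in TUDCA replicate 1 and 0.146 in TUDCA replicate 2, from 16, 16 and 3 reads. TUDCA replicate 1 matched DMSO and TUDCA replicate 2 stood below both, so the TUDCA libraries lay on either side of DMSO. The ratio of TUDCA replicate 2 to DMSO was 0.191 (exact 95% counting interval 0.0357 to 0.667) and that of TUDCA replicate 1 to DMSO was 1.10 (0.517 to 2.36). Such intervals cover counting error of these libraries only, not variation between cultures. Cyp8b1 stayed under the filter of a mean of 1 RPKM over the 3 libraries and was not tested.

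The alternative route was led by Cyp27a1 (ENSMUSG00000026170), at 57.4 RPKM in DMSO, 52.4 in TUDCA replicate 1 and 60.7 in TUDCA replicate 2. DMSO lay between the TUDCA libraries, and the level was above that of 85.8 to 87.3% of the genes with reads in each library. Cyp7b1 (ENSMUSG00000039519) stood at 4.50 RPKM in DMSO against 6.91 and 4.71 RPKM in the TUDCA libraries. TUDCA replicate 2 was close to DMSO and TUDCA replicate 1 alone stood higher. Cyp39a1 (ENSMUSG00000023963) stood at 4.36 RPKM in DMSO against 7.11 and 5.85 RPKM, both TUDCA values being higher. Per unit of length, Cyp27a1 was 75.3 times Cyp8b1 in DMSO, 62.3 times in TUDCA replicate 1 and 417 times in TUDCA replicate 2, the last over only 3 reads of Cyp8b1. Cyp7b1 was 5.91, 8.22 and 32.4 times Cyp8b1 in the same order. Against the level of 3 reads for Cyp7a1, Cyp27a1 was at least 452-fold higher in DMSO and at least 374-fold and 470-fold higher in TUDCA replicates 1 and 2, and Cyp7b1 was at least 35.4-fold, 49.3-fold and 36.6-fold higher. The transcripts of both alternative enzymes thus stood above those of both classical ones in every library, with and without TUDCA.

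**Figure D1:**
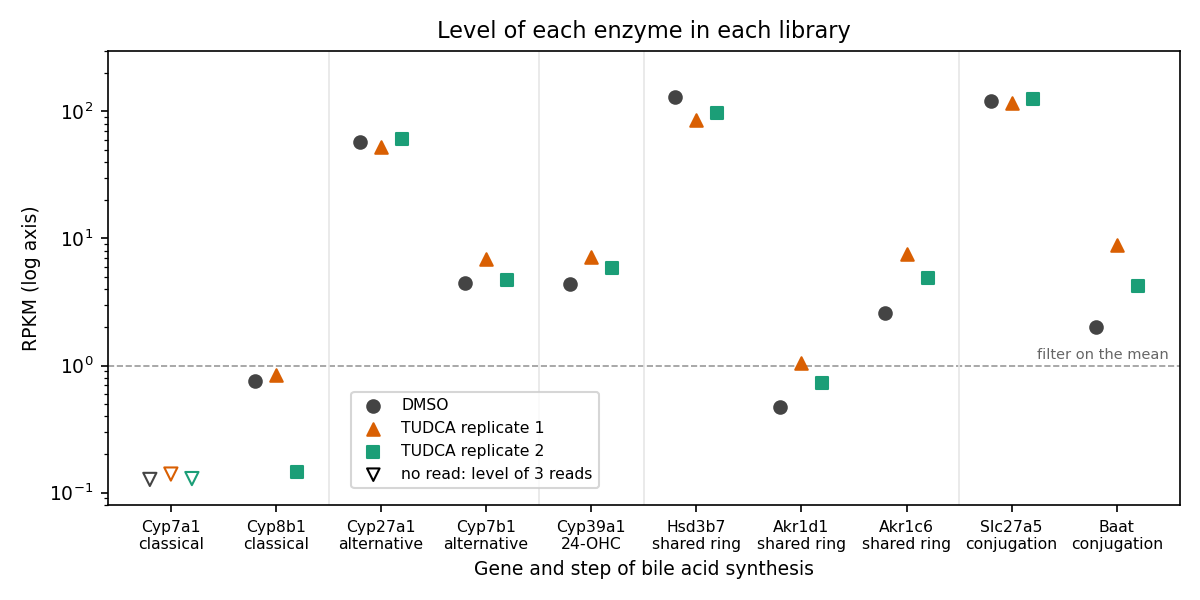
RPKM of the 10 enzymes on a log axis, 1 point per library, ordered by step. 24-OHC stands for 24-hydroxycholesterol, open triangles mark the level of 3 reads for a gene without reads, and the dashed line marks 1 RPKM. Hsd3b7, Slc27a5 and Cyp27a1 lie at 52.4 RPKM or more in every library, and Cyp7a1, Cyp8b1 and Akr1d1 have means below 1 RPKM.

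Within the shared ring steps and the conjugation pair, 1 enzyme of each was high and its partners low. Hsd3b7 (ENSMUSG00000042289), the dehydrogenase that oxidises the ring hydroxyl of both routes' intermediates, stood at 130.6 RPKM in DMSO against 86.2 and 96.5 RPKM in the TUDCA libraries. Akr1d1 (ENSMUSG00000038641), the reductase that acts next and gives the ring its bent shape, had 0.475, 1.05 and 0.726 RPKM from as few as 2, 4 and 3 reads, or 8, 16 and 12 at the multiple nearest to its mean transcript length. It stayed under the filter, and its counting intervals against DMSO included 1 at either number of reads. Akr1c6 (ENSMUSG00000021210) had 2.57, 7.53 and 4.90 RPKM. Slc27a5 (ENSMUSG00000030382), the liver-specific bile acyl-CoA synthetase, stood at 121.0 RPKM in DMSO against 116.4 and 125.6 RPKM with TUDCA, and Baat (ENSMUSG00000039653), the acyltransferase that follows it, had 2.03, 8.83 and 4.25 RPKM. The ratio of Slc27a5 to Baat was 59.7 in DMSO and 13.2 and 29.6 with TUDCA. Per unit of length, the transcript of the activating enzyme thus exceeded that of the conjugating one in every library.

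The order of the levels was Hsd3b7, Slc27a5, Cyp27a1 in DMSO and Slc27a5, Hsd3b7, Cyp27a1 in both TUDCA libraries. Cyp7b1, Cyp39a1, Akr1c6 and Baat followed, between 2.03 and 8.83 RPKM. With TUDCA their means were 5.81 ± 1.55, 6.48 ± 0.89, 6.22 ± 1.86 and 6.54 ± 3.24 RPKM (SD, n = 2), so these 4 neighbours did not differ beyond the spread of the libraries. Cyp8b1 and Akr1d1 exchanged places between DMSO and TUDCA, at 0.493 ± 0.492 and 0.887 ± 0.228 RPKM with TUDCA. Slc27a5 at 121.0 ± 6.5, Hsd3b7 at 91.4 ± 7.3 and Cyp27a1 at 56.5 ± 5.9 RPKM did not overlap with TUDCA.

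The order of the 3 highest enzymes depended on the length that the deposited values divide by. Over 6416 genes with more than 200 reads in DMSO and at least 2 transcripts in GENCODE M21, the smallest length that fits was within 1 nt of the mean of the gene's transcript lengths for 28.4%, and equal to the longest transcript for 1.31%. For Baat it was 1602 nt, the mean of its 2 transcripts, of which the longest has 1941 nt. For the 3 highest enzymes the length that fits equalled neither. Hsd3b7 has 13 transcripts in M21 and fits a length of 1431 nt, against a mean of 1108.3 nt and 2286 nt for the longest. Slc27a5 fits 1097 nt, against a mean of 1235.5 nt and a longest of 2288 nt, and Cyp27a1 fits 1890 nt, against a mean of 1107 nt and a longest of 1892 nt. Rescaled to the longest transcript, which was chosen after seeing the data, Hsd3b7, Slc27a5 and Cyp27a1 had rescaled levels of 81.8, 58.0 and 57.3 in DMSO, 54.0, 55.8 and 52.3 in TUDCA replicate 1, and 60.4, 60.2 and 60.6 in TUDCA replicate 2. With TUDCA the 3 levels then overlapped. These levels take the smallest reads that fit. A gene with a multiple of them would have a rescaled level higher by that multiple and could lie outside the overlap. The ratios of Cyp27a1 and Cyp7b1 to Cyp8b1 moved by less than 1% (75.2 and 5.91 in DMSO). The ratio of Slc27a5 to Baat fell to 34.7 in DMSO and to 7.66 and 17.2 in TUDCA replicates 1 and 2, still above 1 in each. The lower bounds over Cyp7a1 rose, to 859-fold, 710-fold and 892-fold for Cyp27a1 and 67.4-fold, 93.7-fold and 69.3-fold for Cyp7b1. The ratio of a gene's RPKM between libraries does not involve its length, but its difference in log2(RPKM + 1) does, since the added 1 weighs more at a low level.

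**Figure D2:**
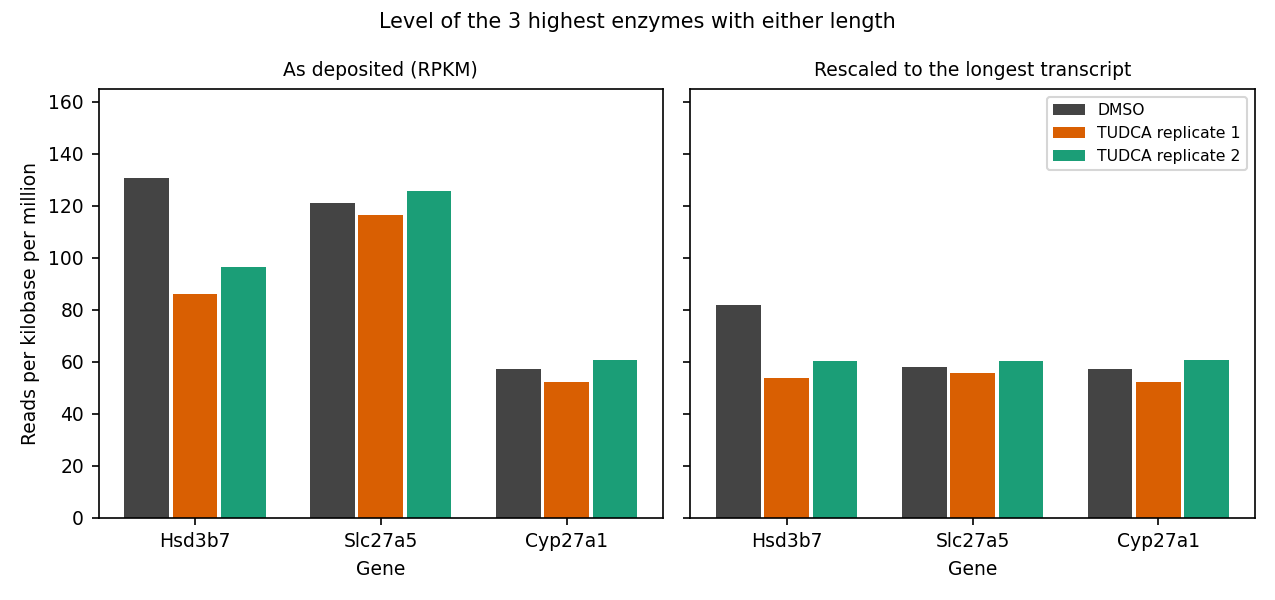
Levels of Hsd3b7, Slc27a5 and Cyp27a1 in each library, as deposited (left, RPKM) and rescaled to the longest GENCODE M21 transcript (right), with bars for single libraries. The rescaled levels take the smallest whole reads that fit, and the same library sizes, over that length. On the left Cyp27a1 is lowest at 52.4 to 60.7, and on the right all 3 genes lie between 52.3 and 60.6 with TUDCA.

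With TUDCA, 2 of the 7 enzymes that passed the filter were called higher and none lower, which left 5 without a call. Baat and Akr1c6 were the 2 called, and each was higher in both TUDCA libraries. All 7 had at least 2.03 RPKM in every library, so none passed the filter of a mean of 1 RPKM through 1 group alone. With the alternative filter at 5 RPKM, Baat and Akr1c6 passed only through TUDCA replicate 1, at means of 5.035 and 5.001 RPKM. Their calls under that filter are therefore no support. Values were compared as log2(RPKM + 1), which understates changes of low genes, with limma over 11300 genes and a Benjamini-Hochberg adjusted p below 0.05 as the call. Of all genes tested 2.65% were called, 1.77% higher and 0.876% lower. The single DMSO library was taken to vary as the TUDCA pair does, and limma used 1 spread for all genes of a like level. Where the TUDCA libraries of a gene lie far apart, as for Baat, its p-value is therefore too small. In these bulk libraries fewer cells of a type and less RNA per cell cannot be told apart.

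Baat stood at 2.03 RPKM in DMSO against 8.83 and 4.25 RPKM in TUDCA replicates 1 and 2, on 35, 138 and 72 reads. Both TUDCA libraries lay above DMSO, and they differed from each other about as much as the lower of them differed from DMSO. The log2 difference was 1.70 in TUDCA replicate 1 and 0.79 in TUDCA replicate 2, with a mean of 1.25 ± 0.30 (SE, limma adjusted p = 0.00226). By counting error alone the ratios to DMSO were 4.35 (95% interval 2.99 to 6.50) and 2.10 (1.38 to 3.23), and that between the TUDCA libraries was 2.08 (1.55 to 2.80). The call was lost after a correction for GC content and gene length (adjusted p = 0.0808), with a filter at 0.3 RPKM (adjusted p = 0.422) and with no filter (adjusted p = 0.640), among 11 alternatives with limma adjusted p from 0.000662 to 0.640. The log2 difference was 1.14 after that correction and 1.25 under both filters, and ran from 1.11 to 1.58 over the 11.

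Akr1c6 stood at 2.57 RPKM in DMSO against 7.53 and 4.90 RPKM in TUDCA replicates 1 and 2, on 23, 61 and 43 reads. Both TUDCA libraries lay above DMSO, with TUDCA replicate 1 again the higher. The log2 difference was 1.26 and 0.72, with a mean of 0.99 ± 0.30 (SE, limma adjusted p = 0.0376). The counting ratios to DMSO were 2.93 (95% interval 1.79 to 4.96) and 1.90 (1.12 to 3.31). Its call was lost under 5 of 11 alternatives, which were voom on the recovered reads (adjusted p = 0.159), quantile normalization (0.120), the GC and length correction (0.0731), the filter at 0.3 RPKM (0.422) and no filter (0.607), and adjusted p over all 11 ran from 0.0195 to 0.607. The log2 difference under these 5 was 1.22, 0.85, 0.88, 0.99 and 0.99.

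Reads of Akr1c6 can be confused with those of its relatives. Its longest transcript of 1396 nt aligned over 95.8% of its length to Akr1c20 at 90.7% identity, and Akr1c20 itself was at 0.516 RPKM in DMSO against 1.79 and 1.20 RPKM. The sources used here do not say how such reads were assigned. Baat aligned best to Acnat1, a related peroxisomal acyltransferase, over 38.6% of its length at 66.0% identity. Hsd3b7 shares 1018 nt at 100% identity with the M21 gene model Gm49388, which is not analysed here. No other gene's transcript aligned to Cyp8b1, Cyp27a1 or Cyp7b1 at an E-value of 1e-10.

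**Figure D3:**
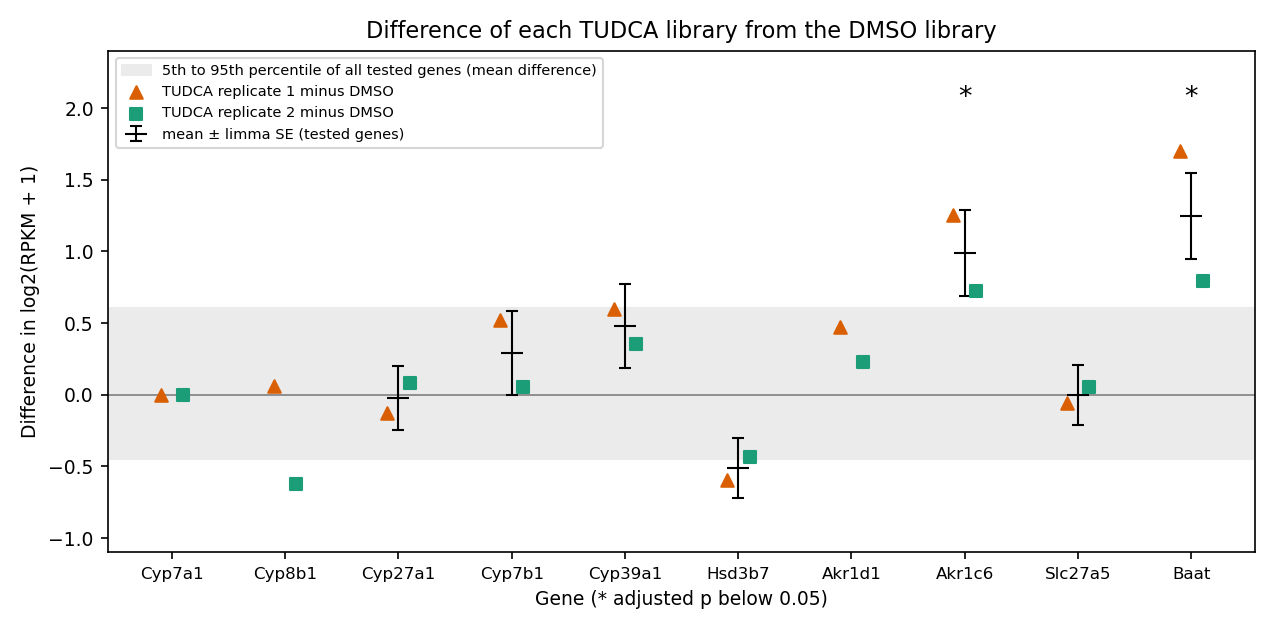
Difference in log2(RPKM + 1) of each TUDCA library from the DMSO library for the 10 enzymes, with the mean and limma SE for the 7 tested. The grey band spans -0.45 to 0.60, the 5th to 95th percentile of the mean difference of all tested genes. Baat and Akr1c6 lie above it in both libraries, Hsd3b7 has a mean of -0.51, and Slc27a5 and Cyp27a1 lie near 0.

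Hsd3b7 was the only tested member below DMSO in both TUDCA libraries. From 130.6 RPKM it stood at 86.2 and 96.5 RPKM, on 2014, 1204 and 1461 reads. Of all genes tested 30.4% were likewise below DMSO in both TUDCA libraries. Its log2 differences were -0.59 and -0.43, with a mean of -0.51 ± 0.21 (SE). It was not called (limma adjusted p = 0.250, unadjusted p = 0.0152, adjusted p from 0.0857 to 0.579 under 11 alternatives). The counting ratios to DMSO were 0.660 (95% interval 0.614 to 0.709) and 0.739 (0.690 to 0.791), against 0.893 (0.827 to 0.965) between the TUDCA libraries. With 1 DMSO library its variation between cultures is not known, and an exact permutation test of 1 library against 2 cannot give a p below 0.333.

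Slc27a5 and Cyp27a1 were not called. The log2 differences of Slc27a5 were -0.06 and 0.05 (mean -0.0009 ± 0.21 SE, limma adjusted p = 1.00), and its counting intervals against DMSO ran from 0.891 to 1.04 and from 0.964 to 1.12. Those of Cyp27a1 were -0.13 and 0.08 (mean -0.02 ± 0.22 SE, limma adjusted p = 0.995), with DMSO between the TUDCA libraries. Its counting ratios to DMSO were 0.913 (95% interval 0.838 to 0.995) and 1.06 (0.976 to 1.15), and that between the TUDCA libraries was 0.863 (0.792 to 0.940). Cyp7b1 had log2 differences of 0.52 and 0.06 (mean 0.29 ± 0.30 SE, limma adjusted p = 0.848), so its mean rests on TUDCA replicate 1. Cyp39a1 had 0.60 and 0.36 (mean 0.48 ± 0.29 SE, limma adjusted p = 0.625), and its counting ratios of 1.63 (1.29 to 2.08) and 1.34 (1.05 to 1.72) both lay above 1.

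Of the 7 tested members, 4 were above DMSO in both TUDCA libraries and 1 was below in both, while 40.5% of all genes tested were above and 30.4% below in both. The median log2 difference of the 7 was 0.29, with 0.52 in TUDCA replicate 1 and 0.08 in TUDCA replicate 2, against 0.04 over all genes tested (0.06 and 0.02). Over all 10 members, untested ones included, the median was 0.14. TUDCA replicate 1 exceeded TUDCA replicate 2 for Cyp7b1, Cyp39a1, Akr1c6 and Baat, and was below it for Cyp27a1, Hsd3b7 and Slc27a5, the 3 high enzymes. Of 9 members with reads, the counting interval of the ratio left out 1 for 6 in TUDCA replicate 1 against DMSO, 5 in TUDCA replicate 2 against DMSO and 6 between the TUDCA libraries. Over all genes with reads in either library of the pair the shares were 34.1%, 27.7% and 28.5%, and the interval narrows as reads increase.

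**Figure D4:**
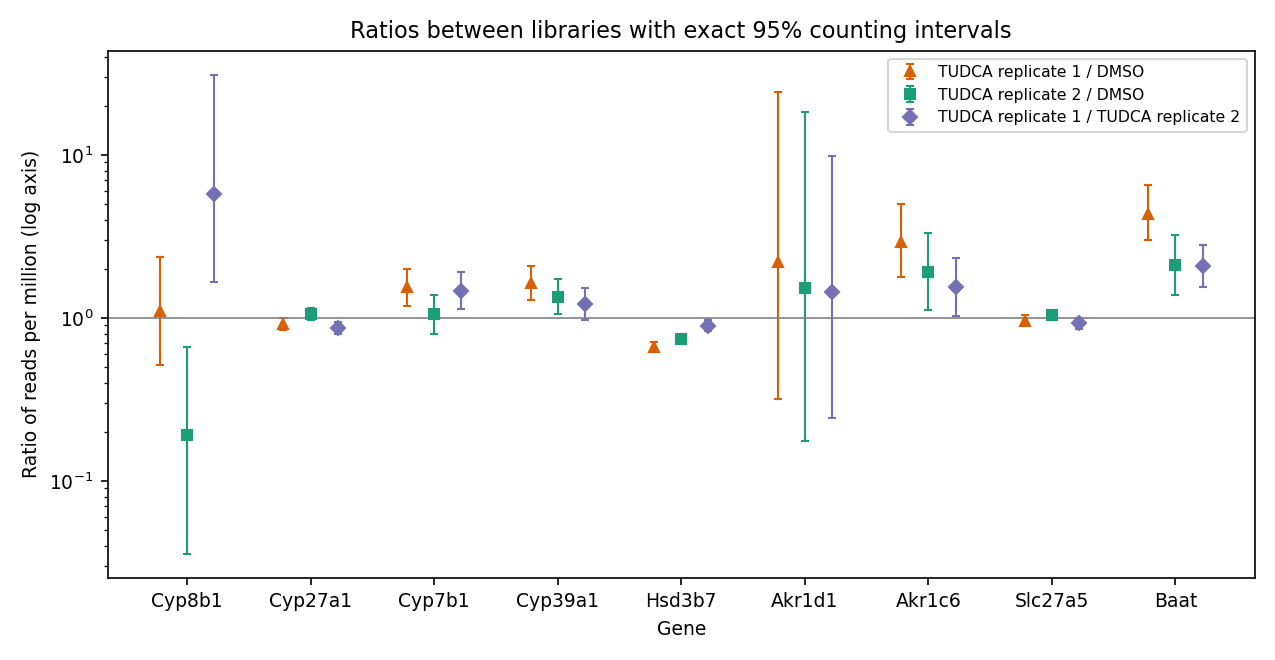
Ratios between libraries of the reads, scaled to library size, for the 9 members with reads, on a log axis, with exact 95% counting intervals from the smallest whole reads. The intervals are widest for Akr1d1 and Cyp8b1, which have at most 16 reads, and Baat and Akr1c6 lie above 1 against DMSO in both TUDCA libraries as well as between the TUDCA libraries.

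Of 12 other enzymes of bile acid synthesis 9 passed the filter, and the test called 1 of these higher and none lower. Over all genes tested the shares were 1.77% higher and 0.876% lower. Cyp2c70, which makes the muricholic acids of mice, rose from 33.1 RPKM to 72.6 and 60.6 RPKM (mean log2 difference 0.98, limma adjusted p = 0.000968). It was well expressed in all 3 libraries, unlike the first enzymes of the classical route. Acnat1 was at 0.560 RPKM in DMSO against 2.68 and 1.14 RPKM and was not called (limma adjusted p = 0.166). It passed the filter only through the TUDCA libraries, so the filter itself favoured a rise. Acox2, the peroxisomal oxidase of bile acid side-chain shortening, had 41.6, 62.1 and 62.1 RPKM (limma adjusted p = 0.202). The oxysterol-forming enzymes Ch25h and Cyp46a1, the latter the source of the substrate of Cyp39a1, were at most 0.152 and 0.263 RPKM. The median log2 difference of the 9, Acnat1 included, was 0.28.

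Among 15 regulators of the pathway 12 passed the filter, 5 of them with a call, all higher, and the median log2 difference of the 12 was 0.63. Over all genes tested 1.77% were called higher. The pathway lists were chosen with earlier results of these data known, so the number of calls is a description only. Nr0b2, the SHP gene, was at 1.15 RPKM in DMSO against 5.43 and 22.8 RPKM, and was called higher (log2 differences 1.58 and 3.47, limma adjusted p = 4.37e-15). Besides no filter and the filter at 0.3 RPKM, robust estimation alone among 11 alternatives did not call it (limma adjusted p = 0.855). The TUDCA libraries of Nr0b2 lay far apart, at -1.89 in log2 for replicate 1 minus replicate 2. That is a larger gap than the one between TUDCA replicate 1 and DMSO. The p-value of Nr0b2 in the reported fit is therefore too small, as for Baat. Nr1h4, the FXR gene, rose from 6.26 to 17.9 and 12.0 RPKM, and the xenobiotic receptor gene Nr1i2 from 5.09 to 16.3 and 24.6 RPKM. Hnf4a, a hepatocyte transcription factor that activates several synthesis genes, rose from 115.0 to 198.6 and 191.2 RPKM, and Fgfr4, the hepatocyte receptor of the gut hormone FGF15, from 7.48 to 16.8 and 13.3 RPKM. The calls of both were lost with median centring (limma adjusted p = 0.153 and 0.0634). That of Hnf4a was also lost without the variance trend (0.160), and that of Fgfr4 with quantile normalization, voom and the GC and length correction (0.120, 0.0603 and 0.0599). Klb, the coreceptor of Fgfr4, stayed under the filter at 0.831, 0.592 and 0.491 RPKM, and Fgf15 itself had no read.

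Of 10 matched genes for redox partners and cholesterol supply, 9 passed the filter and limma called none (1 with an unadjusted p below 0.05, Cyb5a; median log2 difference -0.02, 5 of 9 differences negative). Cyb5a, an electron carrier, was at 249.0 RPKM in DMSO against 370.2 and 354.1 RPKM (limma adjusted p = 0.154), and was called higher with quantile normalization and by no other alternative. Por, the reductase that serves the microsomal P450 enzymes, had 584.0, 480.7 and 500.3 RPKM (limma adjusted p = 0.763), and the sterol carrier Stard4 had 10.5, 9.58 and 7.95 RPKM (limma adjusted p = 0.880). Fdx1, the ferredoxin that serves mitochondrial Cyp27a1, had 35.8, 36.3 and 36.5 RPKM in the same order.

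Of 6 genes of taurine supply 5 passed the filter, and the test called 1 of these higher and none lower. Over all genes tested the shares were 1.77% and 0.876%, and the count is a description only, as for the other lists. Cdo1, cysteine dioxygenase, rose from 19.8 RPKM to 90.9 and 73.5 RPKM (mean log2 difference 1.99, limma adjusted p = 8.68e-16). Fmo1, which oxidises hypotaurine, had 5.41, 9.48 and 7.35 RPKM (limma adjusted p = 0.488), and the taurine transporter gene Slc6a6 had 40.8, 37.8 and 36.1 RPKM (limma adjusted p = 0.933). The call was of the enzyme that acts first on cysteine, and Csad, the decarboxylase after it, had 4.34, 4.62 and 4.30 RPKM (limma adjusted p = 0.995). All calls named in the 4 pathway lists were lost with no filter and, except that of Cdo1, with the filter at 0.3 RPKM.

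**Figure D5:**
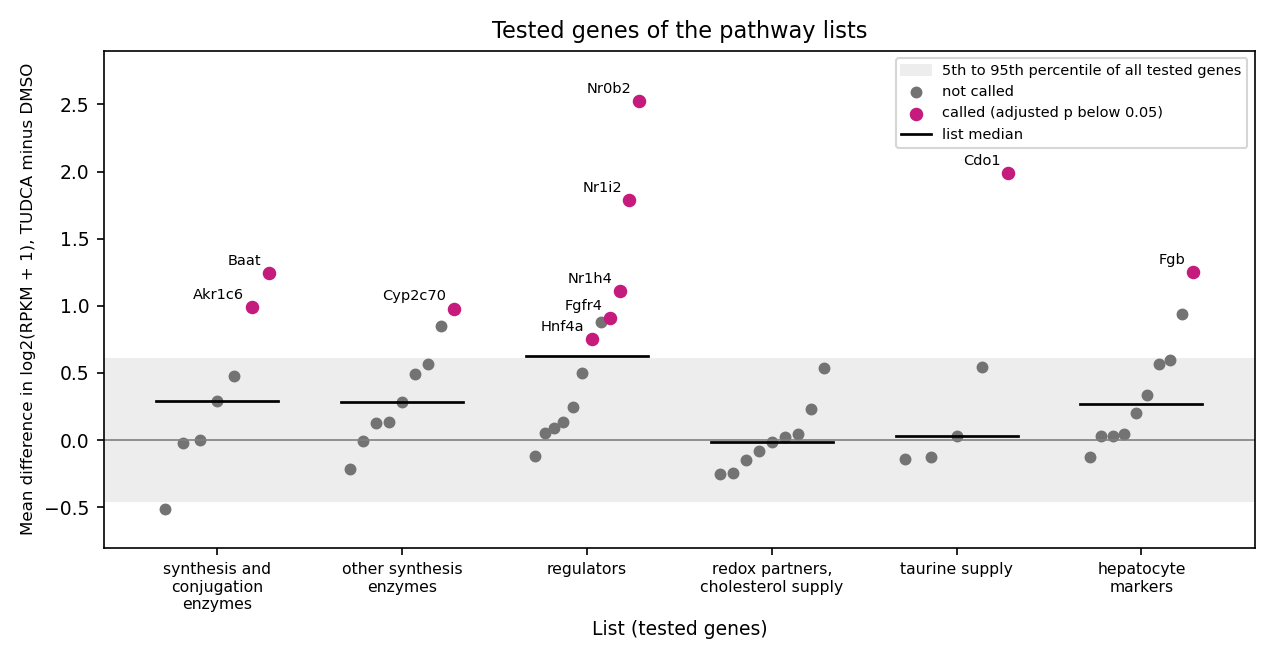
Mean difference in log2(RPKM + 1) between TUDCA and DMSO for the tested genes of the enzymes, 4 pathway lists and the hepatocyte markers, with 1 point per gene and a line at the list median. Called genes are named and all lie above 0, and medians run from -0.02 for redox partners and cholesterol supply to 0.63 for the regulators.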

How the data were processed

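The authors deposited RPKM values, 1 table per library with 37620 Ensembl identifiers. CASAVA, HTSeq, Bowtie2 and TopHat2 2.0.7 are listed, per the submitters' processing notes, without roles. The sources used here do not give the genome build, the annotation or the strand setting. Symbols came from GENCODE M21 by identifier (32897 matched), and 102 of 103 list entries matched. All 19146 genes above 0 gave whole reads, within 5.5e-10 reads, and these smallest reads made up 95.7 to 95.8% of the library totals.

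From these values log2(RPKM + 1) was computed, the 11300 genes whose mean reached 1 RPKM were kept, and TUDCA was fitted against DMSO with limma 3.58.1 in R 4.3.3 (lmFit, eBayes with trend, infinite prior degrees of freedom, SD 0.159 to 0.265). Alternatives were other pseudocounts, filters, scalings and moderation, voom on recovered reads, a spline correction for GC content and length, and leaving out a library. The members and lists were chosen with earlier results of these data known. Named genes were every member, all called genes of each pathway list and its 3 largest differences. Klb, Fgf15, Csad, Fdx1, Ch25h, Cyp46a1, Akr1c20 and the markers were added after their values were seen.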

Additional observations from a re-analysis of the deposited data

How the results depend on the processing

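No paired analysis was possible because the DMSO library carries no replicate number and stands alone. Leaving out a TUDCA library left no residual degree of freedom and hence no test. By size alone, genes past a log2 difference of 1 in both TUDCA libraries numbered 87 higher and 32 lower. With 1 TUDCA library left out there were 123 to 215 higher and 65 to 69 lower. These counts ask for the difference in 1 library instead of both and so cannot be smaller. Their rise therefore does not show how far the result depends on a replicate. With no filter the genes called fell from 200 higher and 99 lower to 0 and 0 by limma (1696 of 19146 genes had an unadjusted p below 0.05), and with a filter at 0.3 RPKM to 12 and 14. Members called higher, 2 in the reported fit, numbered 0 with no filter, 0 with the filter at 0.3 RPKM, 0 after the GC and length correction (unadjusted p below 0.05 for 0, 2 and 2 of them higher, and for Hsd3b7 lower in all 3), 1 with quantile normalization and 1 with voom on recovered reads. The members' median of 0.29 ranged from 0.08 to 0.52 when TUDCA replicate 1 or 2, respectively, was left out, and was 0.15 with quantile normalization and 0.13 after the GC and length correction. The calls in the other synthesis enzymes (1) and regulators (5) went to 0 with no filter and 0 with the filter at 0.3 RPKM, the regulators to 3 with median centring, taurine supply (1) to 0 with no filter, and redox partners and cholesterol supply (0) to 1 with quantile normalization. The ratios of Hsd3b7 and Slc27a5 to Cyp27a1 with TUDCA, 1.62 and 2.15 as deposited, were 1.01 and 1.03 per longest transcript from the smallest reads that fit. No member was called lower under any of these settings, and depth limits Cyp7a1, Cyp8b1 and Akr1d1.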
